A study of Homo sapiens with 25 samples.

Results

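The comparison of prexasertib alone with DMSO asks what inhibition of the checkpoint kinase CHK1 for 3 h did to the RNA of S-phase cells in which TRRAP was present. It rests on 6 of the 25 samples of the series, all of them among its 12 RNA libraries: 3 libraries with prexasertib (sample titles CHK1i) and 3 with DMSO, chosen by their titles. The cells were A549, an established human lung carcinoma line, and carried a degron tag (mAID) on TRRAP, the scaffold of the SAGA and TIP60 acetyltransferase complexes. Both groups were arrested with thymidine (2 mM, 20 h) and released from it for 4 h, and neither received 5-Ph-IAA, the compound that degrades the tagged protein. The other 6 RNA libraries carried 5-Ph-IAA at 1 µM for 6 h, 3 with prexasertib and 3 without, and serve below as a second set of cells. The labels do not say whether the tagged line is a single clone, how long before harvest the drug was added relative to the release, or whether the libraries came from separate cultures. They give the genotype as WT although the growth protocol names the tagged cells. They give the dose of prexasertib in units that differ between the RNA and the chromatin samples, so no dose is stated here.

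CHK1 is activated by the kinase ATR when replication forks stall or fire too densely. It restrains the CDC25 phosphatases and thereby cyclin-dependent kinase activity, holds back late origins and keeps the mitotic programme low until S phase is complete. The usual transcript readouts of CHK1 inhibition are the G2/M genes driven by B-MYB, MuvB and FOXM1, the S-phase genes driven by E2F, and the p53 targets. These are described briefly here, and most of what follows concerns the rest of the transcriptome.

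The 6 libraries held 11584320 to 13754538 counts each, and the 10 most abundant genes took 5.55% to 5.73% of them. The libraries with replicate number 3 stood apart from those numbered 1 and 2 in both groups. Results are given with the replicate number as a block, as fixed for this comparison. The deviations from the group mean correlated at 0.252, 0.353 and 0.551 between same-numbered DMSO and prexasertib libraries, over 14658 genes. Across numbers 1 and 2 they correlated at 0.196 and 0.208. Across number 3 and the other numbers the correlations ran from -0.418 to -0.326. Of the epithelial markers, the keratin genes KRT8, KRT18 and KRT7 had means between 2230 and 3410 CPM (counts scaled to a common library total, here without TMM factors) in DMSO, and none of the 3 was called. The lung markers NKX2-1, SFTPC and SFTPB stood at 0.199 CPM or less in DMSO, and EPCAM at 0.628 CPM. The summed markers of blood, endothelium, fibroblasts and neurons ranged from 3.42 to 4.47, 0.88 to 1.03, 29.0 to 33.6 and 58.9 to 65.2 CPM in DMSO, and from 2.79 to 3.71, 0.169 to 0.45, 30.1 to 36.1 and 60.3 to 70.3 CPM with prexasertib. Most of the fibroblast sum was COL1A1 and most of the neuron sum SNAP25, while PTPRC, CLDN5, DCN and STMN2 were at 0 in all 6 libraries. In bulk RNA a change in the share of cells in a cell-cycle phase and a change in RNA per cell cannot be told apart.

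Prexasertib changed 2659 of 14658 tested genes, 18.1%, at an adjusted p under 0.05 in edgeR's quasi-likelihood test. There were 1227 genes higher (8.37%) and 1432 lower (9.77%). The percents given below for the gene lists are to be read against these shares. Most of the changes were small: the median log2 fold change was 0.35 among the higher genes and -0.38 among the lower, and only 121 of the higher and 76 of the lower changed at least 2-fold (a log2 change of 1.0). Of the higher genes, 1215 rose in 3 of 3 replicate pairs, and of the lower, 1410 fell in 3 of 3. The blocked test that chose these genes favours pairs that agree, so these counts are not separate support. The 3 usual lists together held 136 of the called genes, so 94.9% of the calls lay outside them, and 1993 called genes were in none of 46 lists examined. These shares mostly reflect the size of the lists. The 3 usual lists hold only 88, 46 and 47 of the 14658 tested genes, so nearly all tested genes also lay outside them. Without the block the same test called 346 higher and 347 lower. With library size as the only scaling, 34.3% of the calls were higher instead of 46.1%.

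**Figure D1:**
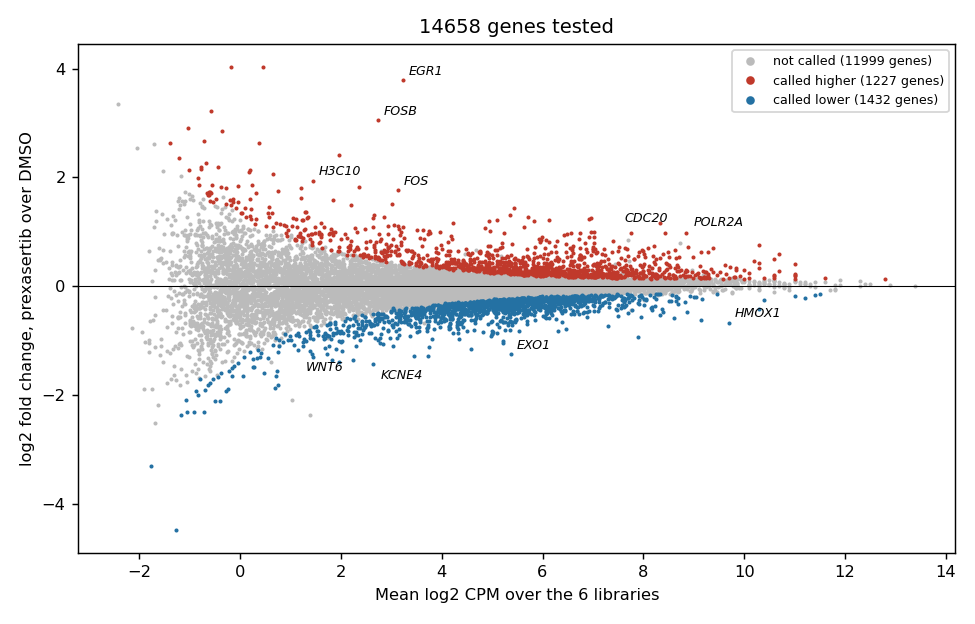
Log2 fold change with prexasertib against the mean log2 CPM of the 6 libraries, 1 point per tested gene, with the 1227 genes called higher in red and the 1432 called lower in blue. The points far from 0 on the upper side at moderate levels are early response genes such as EGR1 (3.79) and FOSB (3.05), and most called genes lie within 1.0 of 0.

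At a mean log2 CPM of 1.0 or more, the rises were led by immediate early genes, transcription factors and regulators that cells switch on within minutes of a stimulus. EGR1 (NCBI Gene 1958, chr5:138465479-138469303, hg38), a zinc finger transcription factor, stood at 3.62, 3.87 and 0.856 CPM in DMSO replicates 1, 2 and 3 and at 47.5, 47.9 and 20.5 CPM with prexasertib. The groups did not overlap, which the rule for the largest rises required, and replicate 3 was the lowest of each. Its log2 fold change was 3.79 (SE 0.19, edgeR adjusted p = 1.66e-12). FOSB, a subunit of the AP-1 transcription factor, stood at 2.56, 3.61 and 1.48 CPM in DMSO and at 30.1, 31.6 and 5.4 CPM with prexasertib, a rise of 3.05 (SE 0.25, edgeR adjusted p = 1.87e-08). NR4A1, an orphan nuclear receptor of the same early class, was more even, with 43.3, 44.4 and 49.7 CPM in DMSO and 105, 117 and 98.6 CPM with prexasertib (log2 rise 1.22, edgeR adjusted p = 3.2e-15). FOS rose by 1.76 from a mean of 5.03 ± 2.42 to 16.9 ± 6.73 CPM (SD, n = 3; edgeR adjusted p = 3.38e-07).

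Of 37 tested members of the early gene list, 21 were higher and 4 lower (56.8% and 10.8%), with a median log2 fold change of 0.33 against -0.0037 over all genes. In 14 members all 3 prexasertib libraries lay above all 3 of DMSO, which held for 9.78% of all genes. The rise did not cover the whole list. FOSL2, another AP-1 subunit, fell by 0.47, from 395 ± 27.0 to 286 ± 17.7 CPM (SD, n = 3; edgeR adjusted p = 6.12e-10). MYC stood at 87.5 ± 9.97 CPM in DMSO and 83.5 ± 7.15 CPM with prexasertib and was not called (edgeR adjusted p = 0.666). Among the genes of ERK feedback and EGFR ligands 7 of 36 were higher and 3 lower (19.4% and 8.33%), or 4 and 0 without the block. The 3 lower were 1 without prexasertib replicate 3. HBEGF, a growth factor that binds the EGF receptor, rose by 0.99 from 11.0 ± 1.27 to 21.8 ± 0.933 CPM, and the ephrin receptor gene EPHA2 by 0.73 from 233 ± 35.7 to 385 ± 45.5 CPM (edgeR adjusted p = 1.04e-08 and 1.08e-15). DUSP4, a phosphatase that switches ERK off, fell by 0.34 (edgeR adjusted p = 1.93e-06, and 0.0682 without the block). Without the block the early gene counts were 10 higher and 1 lower.

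Other large rises were spread over functions. APOLD1, known as an early response gene of blood vessels, rose by 2.42, from 1.51, 1.58 and 1.79 CPM to 9.1, 10.3 and 6.59 CPM (edgeR adjusted p = 1.68e-10). ARTN, a neurotrophic ligand of the GDNF family, rose by 1.62 (edgeR adjusted p = 5.49e-05). LAG3, an inhibitory receptor of T cells, rose by 1.82 from 2.77 ± 1.2 to 9.57 ± 2.83 CPM (SD, n = 3; edgeR adjusted p = 3.09e-09). These 3 genes were all below 5 CPM in each DMSO library. Their prexasertib libraries lay wholly above, which the rule that named them required.

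The sequence upstream of EGR1 is shown because the gene had the largest rise among the genes named by the rule and its start holds CArG boxes, the element that serum response factor (SRF) binds. The letters are from RefSeq (GRCh38.p14), 5′ to 3′ on the gene's plus strand, chr5:138465349-138465478, the last base lying next to the start of the transcript, with the CArG matches at positions -105 and -83 in capitals.
EGR1: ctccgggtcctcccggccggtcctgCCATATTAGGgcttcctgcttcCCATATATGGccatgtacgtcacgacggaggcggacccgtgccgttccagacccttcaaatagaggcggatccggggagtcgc
A CArG box was found on either strand in 1.32% of the promoters of higher genes and in 1.02% of all 11547 tested genes with a promoter sequence, and the AP-1 site TGANTCA in 4.47% and 4.87%. Promoters here run from 250 bases before to 50 bases after the start, and a match is a description of the letters only.

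**Figure D2:**
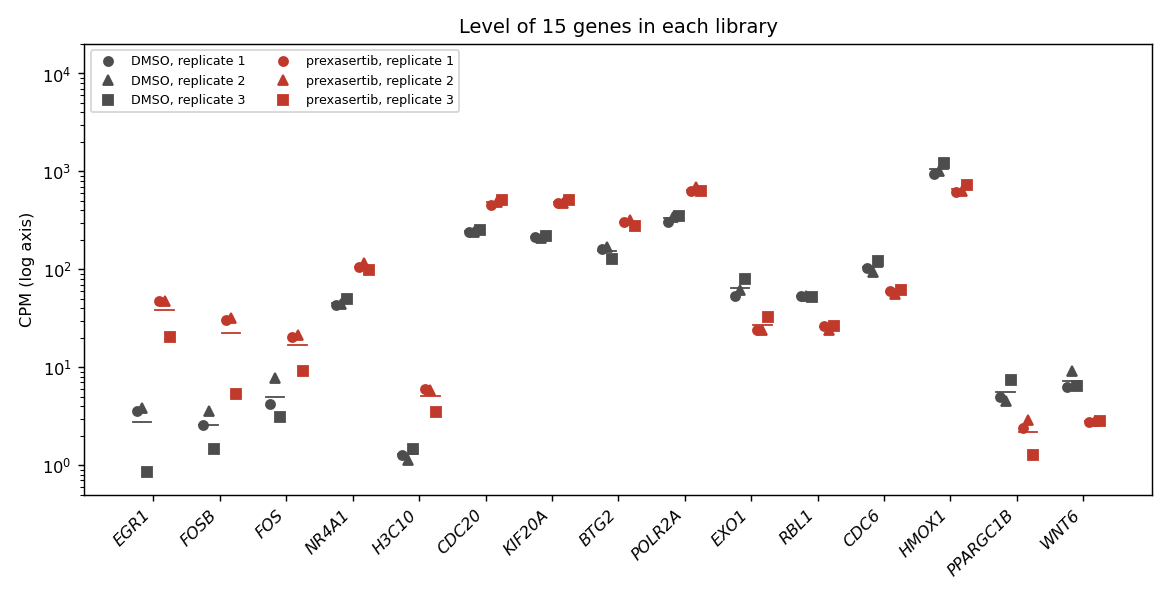
Level of 15 genes in each of the 6 libraries, in CPM on a log axis, DMSO in grey and prexasertib in red, with the symbol giving the replicate and the short line the mean. The 3 prexasertib libraries of each gene lie wholly above or wholly below the 3 DMSO libraries, and replicate 3 lies apart from the other two for EGR1, FOSB and PPARGC1B. For genes named as the largest rises or falls, the naming rule required groups that do not overlap.

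Replication-dependent histone genes, whose mRNA normally ends in a stem-loop without a poly(A) tail, were mostly higher in poly(A)-selected RNA where they could be tested. Of 66 listed genes 18 passed the filter on low counts, and of those 12 were higher and 0 lower (0 at an unadjusted p under 0.05, and 0 by DESeq2 or limma-voom). Their median was 1.05, but weak genes passed the filter only where a group was high enough. With the strict filter on low counts 7 were higher, and without the block 9. H3C10 (NCBI Gene 8357, chr6:27810051-27810536), a histone H3 gene, stood at 1.28, 1.14 and 1.48 CPM in DMSO and at 5.99, 5.82 and 3.48 CPM with prexasertib, a rise of 1.94 (edgeR adjusted p = 3.16e-07). H2BC12 was more abundant, with 24.9, 19.3 and 20.9 CPM against 45.8, 43.2 and 42.9 CPM, a rise of 1.02 (edgeR adjusted p = 4.35e-12). The linker histone gene H1-2 rose by 0.97 from 9.62 ± 0.335 to 18.8 ± 1.49 CPM (edgeR adjusted p = 6.25e-08). Histone genes are near-identical copies and H2BC12 overlaps H4C9, so single values are uncertain.

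The G2/M list rose almost as a whole. Of 88 members 77 were higher and 3 lower (87.5% against 8.37% of all genes) (median 0.52), and 59 were higher without the block. CDC20 (NCBI Gene 991, chr1:43358981-43363203), the activator of the anaphase-promoting complex, stood at 238, 239 and 255 CPM in DMSO and at 450, 484 and 516 CPM with prexasertib, a rise of 0.98 (SE 0.052, edgeR adjusted p = 5.52e-20). NEK2, a kinase that splits centrosomes, went from 103, 85.7 and 89.3 to 186, 184 and 182 CPM, and ARL6IP1, an endoplasmic reticulum protein gene outside the lists, from 1020, 942 and 922 to 1670, 1600 and 1580 CPM (log2 rises 0.99 and 0.75, edgeR adjusted p = 9.98e-18 and 3.78e-17). The members were not uniform. LMNB1, a nuclear lamina gene, fell by 0.45 from 121 ± 9.07 to 88.3 ± 10.3 CPM (edgeR adjusted p = 2e-05), and UBE2C, the ubiquitin-conjugating enzyme of the anaphase-promoting complex, rose by only 0.24 (edgeR adjusted p = 0.000855, and 0.0877 without the block). CDK1, the mitotic kinase itself, fell by 0.26 from 242 ± 37.8 to 202 ± 31.6 CPM (edgeR adjusted p = 0.00179), with overlapping groups. The call of CDK1 was lost without DMSO replicate 1 (edgeR adjusted p = 0.0548) and without the block (0.301).

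Some genes that build the centrosome were higher. Of 40 centriole duplication genes 13 were higher and 2 lower (32.5% and 5.0%, against 8.37% and 9.77% of all genes, median 0.11). Without DMSO replicate 1 the higher count was 8, and without the block it was 6. ODF2, a protein of centriole appendages, stood at 82.8, 78.4 and 66.5 CPM in DMSO and at 126, 125 and 111 CPM with prexasertib, a rise of 0.67 (edgeR adjusted p = 3.17e-12). CNTROB, which encodes centrobin of daughter centrioles, rose by 0.63 and the appendage gene CEP164 by 0.41 (edgeR adjusted p = 8.97e-09 and 9.02e-05), while RTTN, needed to lengthen centrioles, fell by 0.43 (edgeR adjusted p = 7.74e-05). Of 62 cilium genes 5 were higher and 5 lower, 8.06% in each direction. The 5 higher were 1 without DMSO replicate 3, 2 without prexasertib replicate 1 or 2, 3 without DMSO replicate 2 or prexasertib replicate 3 and 0 without the block, and the 5 lower were 3 without DMSO replicate 1 or prexasertib replicate 1. Among 28 cohesin and condensin genes 9 were higher and 6 lower (32.1% and 21.4%). The condensin subunit gene NCAPD2 rose by 0.67 from 312 ± 6.38 to 496 ± 18.3 CPM and the cohesin subunit gene RAD21 by 0.41 from 224 ± 9.02 to 298 ± 10.5 CPM, while PDS5B, which regulates cohesin on chromatin, fell by 0.46 (edgeR adjusted p = 7.11e-15, 2.75e-08 and 0.00112). The count of 6 was 3 without DMSO replicate 1 and 0 without the block, under which PDS5B had an edgeR adjusted p of 0.0813.

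The promoters of the higher genes held the elements of G2/M control more often than other promoters did. The CHR element TTTGAA, on either strand, was found in 159 of 984 promoters of higher genes (16.2%), in 9.23% of those of lower genes and in 9.53% of all 11547. The CCAAT box of NF-Y was found in 47.3%, 35.7% and 36.3%. Outside the G2/M list the shares in higher genes were still 12.5% for CHR against 9.15% of all, and 45% for CCAAT against 36.0%. Of 461 genes with both elements 21.5% were called higher, and of 6719 with neither 6.83%. The TATA box TATAAA was in 8.84% of the promoters of higher genes and in 5.66% of all. The CRE element TGACGTCA (3.96% against 3.24%) and the E2F element TTTNNCGC (10.6% against 10.3%) lay near the background among higher genes. Among lower genes the E2F element was in 11.8% of promoters, also near the background.

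3 promoters show these arrangements, each as RefSeq gives it (GRCh38.p14), 5′ to 3′ on the gene's own strand and ending at the base before the start. CDC20 (chr1:43358851-43358980, plus strand) has CCAAT at -100 and -55 and the CHR at -65. CCNB1, the cyclin that activates CDK1 (chr5:69167020-69167149, plus strand), has CCAAT at -87 and -55 and no TTTGAA in the window shown. RBL1 (chr20:37095998-37096127, minus strand), which encodes the pocket protein p107, has E2F matches at -26 and -16. Capitals mark the matches.
CDC20: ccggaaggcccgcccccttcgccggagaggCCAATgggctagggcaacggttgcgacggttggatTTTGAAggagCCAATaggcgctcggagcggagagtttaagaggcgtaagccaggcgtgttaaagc
CCNB1: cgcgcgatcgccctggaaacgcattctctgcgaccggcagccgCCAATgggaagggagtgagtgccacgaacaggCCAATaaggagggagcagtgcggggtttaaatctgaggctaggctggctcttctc
RBL1: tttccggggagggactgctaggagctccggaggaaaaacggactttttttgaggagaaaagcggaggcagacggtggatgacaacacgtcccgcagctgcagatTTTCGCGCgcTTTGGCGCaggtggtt
CDC20 and CCNB1 were higher with prexasertib (log2 0.98 and 0.705), and RBL1 was lower (log2 -1.05). CCNB1 was chosen after its values were seen.

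Some genes of RNA polymerase II and its pause release, which the usual lists do not cover, were higher. POLR2A (NCBI Gene 5430, chr17:7484366-7514616), which encodes the largest subunit of the polymerase, stood at 303, 342 and 348 CPM in DMSO and at 626, 692 and 626 CPM with prexasertib. The groups did not overlap, and the rise of 0.97 (SE 0.060, edgeR adjusted p = 2.5e-14) was the largest among 545 genes with a DMSO mean above 300 CPM. This rank depends on the bound. CDC20 and the mitotic kinesin gene KIF20A, with DMSO means of 244 and 215 CPM, rose by 0.98 and 1.17. HEXIM1, which holds the pause-release kinase P-TEFb in its inactive complex, stood at 279, 274 and 270 CPM in DMSO and at 428, 429 and 380 CPM with prexasertib, a rise of 0.59 (edgeR adjusted p = 5.85e-07). CCNK, the cyclin of the elongation kinases CDK12 and CDK13, rose by 0.38 from 118 ± 8.01 to 153 ± 4.3 CPM (SD, n = 3; edgeR adjusted p = 1.1e-06). CDK13 itself fell by 0.40 from 45.8 ± 5.36 to 34.7 ± 0.356 CPM (edgeR adjusted p = 0.000563, and 0.0554 without the block). Of 43 P-TEFb and elongation genes 11 were higher and 2 lower, 25.6% and 4.65% (median 0.07.) Without the block 5 were higher and 0 lower.

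Some splicing regulators were higher, by smaller amounts. Of 53 SR protein and hnRNP genes 11 were higher and 2 lower (20.8% and 3.77%, median 0.016). The higher count was 7 without DMSO replicate 1 and 2 without the block. SRSF5, an SR protein gene, stood at 108, 125 and 117 CPM in DMSO and at 148, 152 and 171 CPM with prexasertib, a rise of 0.43 (edgeR adjusted p = 8.63e-07). PTBP1, which represses exons, rose by 0.28 from 366 ± 24.8 to 445 ± 26.1 CPM (edgeR adjusted p = 3.16e-05, and 0.0553 without the block). Ribosomal protein genes (6 of 79 higher, 7.59%), proteasome genes (3 of 35, 8.57%) and ribosome biogenesis genes (3 of 59, 5.08%) were set against 8.37% of all genes higher, and their higher counts depended on the setting. With the 6 libraries alone and the block they were 25, 8 and 9, with RLE size factors 13, 6 and 6, and with DESeq2 11, 4 and 3. Of the genes of the ribosomal protein and proteasome lists 0 were lower (0 and 1 at an unadjusted p under 0.05, and 0 by DESeq2 and limma-voom in both). UBTF, the factor that opens ribosomal DNA for RNA polymerase I, fell by 0.28 from 166 ± 2.72 to 136 ± 2.5 CPM (edgeR adjusted p = 0.000359). The 6 higher ribosomal protein genes were 1 without DMSO replicate 2, 2 without DMSO replicate 3 or prexasertib replicate 1 or 2, and 0 without the block. The 3 higher proteasome genes were 1 without prexasertib replicate 1 or 2, and the 3 higher ribosome biogenesis genes were 1 without DMSO replicate 2 and 5 without prexasertib replicate 3. The 6 lower ribosome biogenesis genes were 2 without DMSO replicate 1 and 1 without prexasertib replicate 1.

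**Figure D3:**
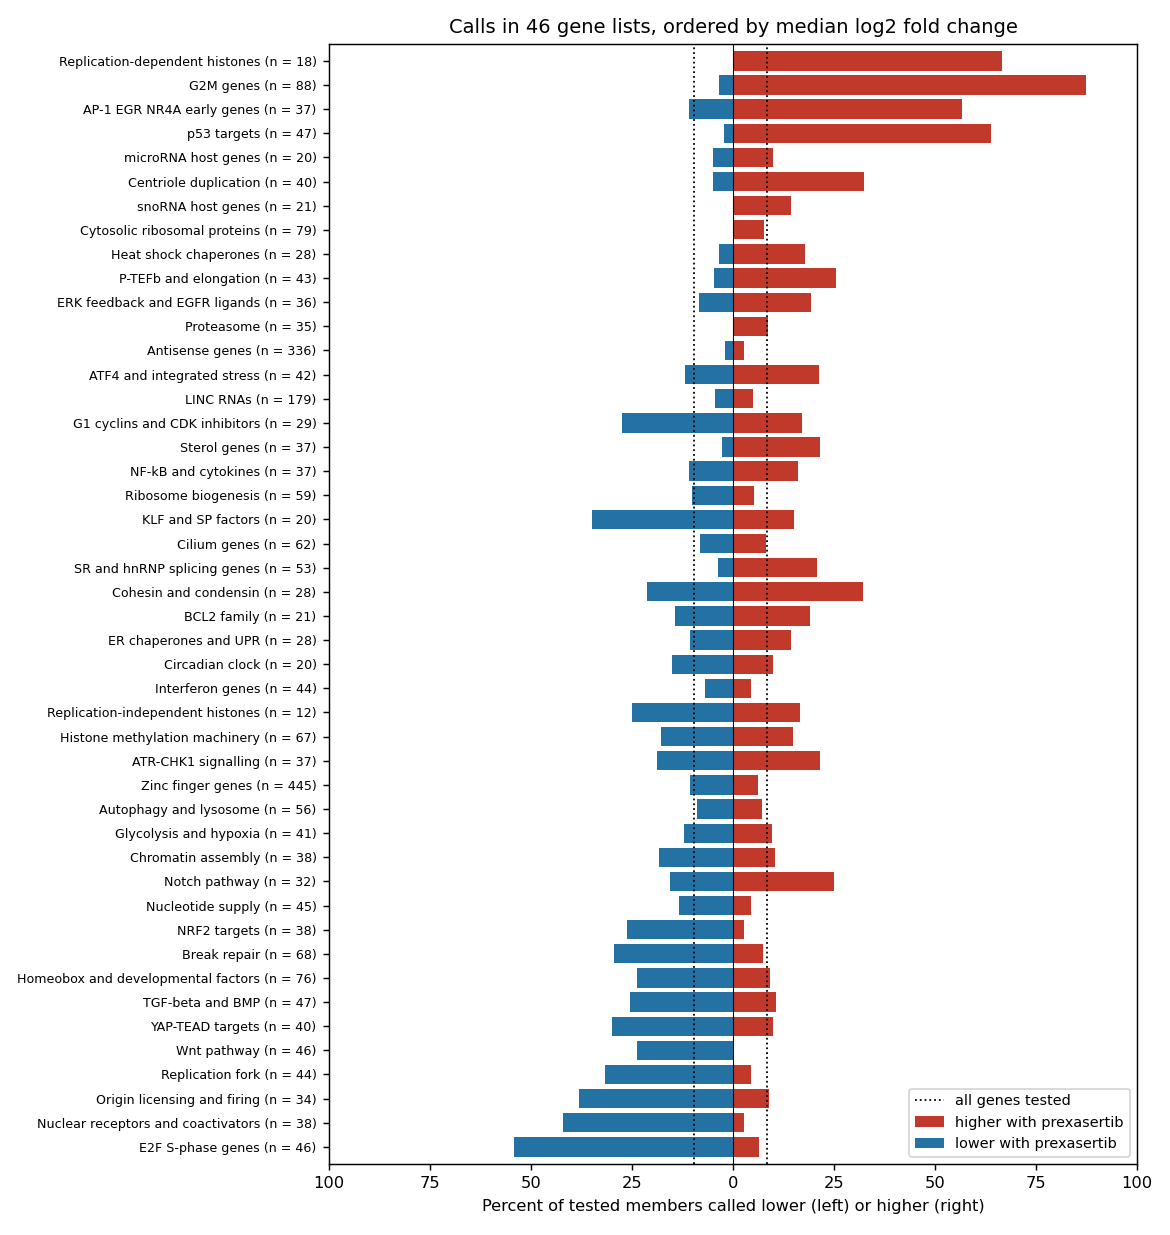
Percent of the tested members of 46 gene lists called higher (red, to the right) or lower (blue, to the left) with prexasertib, ordered by the list's median log2 fold change, with dotted lines at the shares of all genes tested (8.37% and 9.77%). The replication-dependent histone, G2/M, early gene and p53 lists reach farthest to the right, and the E2F, nuclear receptor and origin lists farthest to the left.

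Lower calls were found among genes of DNA synthesis, most of all in the E2F list. Of 46 E2F S-phase genes 25 were lower and 3 higher (54.3% against 9.77% of all genes lower) (median -0.31.) RBL1 (NCBI Gene 5933, chr20:36996349-37095997), the pocket protein gene whose promoter is shown above, stood at 54.0, 53.1 and 52.2 CPM in DMSO and at 26.3, 24.1 and 26.3 CPM with prexasertib, a fall of 1.05 (SE 0.085, edgeR adjusted p = 5.68e-14). EXO1 (NCBI Gene 9156, chr1:241847986-241889939), the exonuclease that resects DNA ends and excises mismatches, had the smallest adjusted p among the falls. It stood at 52.9, 61.1 and 79.7 CPM in DMSO and at 24.2, 24.3 and 32.4 CPM with prexasertib (log2 -1.25, SE 0.087, edgeR adjusted p = 5.9e-16). Of 68 break repair genes 20 were lower and 5 higher (29.4% and 7.35%). TOP3A, a topoisomerase that resolves recombination intermediates, fell by 0.62 from 72.5 ± 12.5 to 47.2 ± 7.78 CPM, while the Holliday junction nuclease gene GEN1 rose by 0.39 from 62.9 ± 6.91 to 82.1 ± 9.19 CPM (edgeR adjusted p = 3.25e-09 and 4.52e-05). The count of 20 was 12 without DMSO replicate 3, 12 without prexasertib replicate 1 and 7 without the block, under which the E2F counts were 12 lower and 2 higher.

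Among origin genes several licensing factors fell. CDC6, which loads the MCM helicase at origins, stood at 104, 93.5 and 121 CPM in DMSO and at 59.5, 56.5 and 62.0 CPM with prexasertib, a fall of 0.83 (edgeR adjusted p = 9.37e-14). CDT1, its partner in licensing, went from 41.4, 44.5 and 52.4 to 20.7, 25.6 and 30.3 CPM, and MCM10, which starts the fork, from 50.6 ± 5.1 to 31.7 ± 3.55 CPM (log2 -0.86 and -0.67, edgeR adjusted p = 1.42e-09 and 2.75e-08). DBF4B, an activator of the origin-firing kinase CDC7, went the other way, from 59.3, 78.6 and 76.0 to 100, 106 and 124 CPM, a rise of 0.63 (edgeR adjusted p = 3.49e-09). In all, 13 of 34 origin genes were lower and 3 higher (38.2% and 8.82%, median -0.16). At the fork 14 of 44 genes were lower and 2 higher (31.8% and 4.55%). POLD3, a subunit of polymerase delta, fell by 0.88 from 43.2 ± 8.41 to 23.4 ± 0.538 CPM (edgeR adjusted p = 8.61e-10), while TOP2A, which untangles replicated DNA and is also a G2/M gene, rose by 0.41 (edgeR adjusted p = 9.56e-09). Without the block 7 origin and 5 fork genes were lower.

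Factors that copy chromatin behind the fork included 7 lower and 4 higher genes of 38 (18.4% and 10.5%, against 9.77% and 8.37% of all genes). CHAF1A, the large subunit of the histone chaperone CAF-1, stood at 61.4, 60.0 and 71.3 CPM in DMSO and at 43.0, 39.7 and 41.0 CPM with prexasertib, and HELLS, a remodeller that helps to maintain DNA methylation, at 46.6 ± 1.86 and 34.5 ± 1.46 CPM (log2 -0.64 and -0.43, edgeR adjusted p = 8.66e-09 and 0.000137). KMT5A, which methylates histone H4, rose by 0.45 from 72.0 ± 4.78 to 98.5 ± 5.11 CPM (edgeR adjusted p = 1.35e-06). Nucleotide supply genes moved little, with 6 of 45 lower and 2 higher (13.3% and 4.44%). RRM2, the regulated subunit of ribonucleotide reductase, fell by 0.33 from 462 ± 53.4 to 367 ± 34 CPM (edgeR adjusted p = 1.71e-06, and 0.193 without the block). The count of 6 was 3 without prexasertib replicate 1 and 0 without the block.

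The checkpoint pathway that prexasertib targets changed in some parts. CHEK1, which encodes CHK1, stood at 38.8, 36.2 and 41.6 CPM in DMSO and at 37.4, 36.3 and 35.5 CPM with prexasertib, overlapping groups with a log2 change of -0.094 (SE 0.087, edgeR adjusted p = 0.519). The drug acts on the kinase and not on its mRNA, so this level does not check the labels. ATR, ATM, TIMELESS and CDC25A were not called (edgeR adjusted p = 0.966, 0.725, 0.59 and 0.369), nor was TRRAP, at 83.2 ± 9.9 and 74.8 ± 10.4 CPM (edgeR adjusted p = 0.671). CLSPN, the adaptor claspin through which ATR reaches CHK1, stood at 38.1, 36.7 and 39.1 CPM in DMSO and at 22.8, 22.6 and 25 CPM with prexasertib, a fall of 0.69 (edgeR adjusted p = 1.66e-07). TOPBP1, the activator of ATR, fell by 0.45 from 95.8 ± 2.11 to 70.3 ± 1.38 CPM, and WEE1, the kinase that blocks CDK1, rose by 0.43 from 35.7 ± 4.82 to 48.1 ± 4.47 CPM (edgeR adjusted p = 8.51e-07 and 0.000409). PPM1D, a p53-induced phosphatase that ends checkpoint signalling, rose by 0.68, from 110, 104 and 89.5 to 185, 165 and 138 CPM (edgeR adjusted p = 4.52e-13). Among 37 genes of the list 8 were higher and 7 lower (21.6% and 18.9%), or 4 and 4 without the block.

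Of 47 p53 targets 30 were higher and 1 lower (63.8% against 8.37%) (median 0.29), and 21 were higher without the block. SERTAD1, a transcriptional coregulator that binds CDK4, went from 82.5, 80.4 and 78.3 to 171, 203 and 205 CPM (log2 rise 1.26, edgeR adjusted p = 2.15e-16). BTG2, an antiproliferative early gene, had a log2 rise of 0.98, from 163, 170 and 129 to 308, 316 and 280 CPM (edgeR adjusted p = 1.55e-18). ZMAT3, which encodes an RNA-binding protein, was the 1 lower member, at 64.6, 57.0 and 43.0 CPM in DMSO and 35.5, 32.6 and 25.7 CPM with prexasertib (log2 -0.81, edgeR adjusted p = 1.42e-10).

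Members of the BCL2 family, which set the threshold for apoptosis, moved in both directions, with 4 of 21 higher and 3 lower. PMAIP1, which encodes the death-promoting protein NOXA, rose by 0.87 from 51.8, 53.2 and 32.5 to 95.6, 94.7 and 60.1 CPM (edgeR adjusted p = 3.41e-10). MCL1, the survival protein that NOXA binds, rose by 0.40 from 307 ± 32.6 to 405 ± 40.8 CPM, while BMF, another death-promoting member, fell by 1.15 from 5.38 ± 1.23 to 2.41 ± 0.474 CPM (edgeR adjusted p = 5.11e-08 and 0.000189). Of 42 ATF4 and integrated stress genes 9 were higher and 5 lower (21.4% and 11.9%). ATF4 was even between replicates, with 257, 260 and 258 CPM in DMSO and 328, 324 and 330 CPM with prexasertib, a rise of 0.34 (edgeR adjusted p = 2.14e-06). SESN2, a sestrin that p53 and ATF4 both induce, rose by 0.70, and STC2, a secreted glycoprotein gene, fell by 0.78 from 115 ± 6.18 to 66.9 ± 3.61 CPM (edgeR adjusted p = 1.21e-10 and 3.67e-13). Without the block the ATF4 list held 2 higher and 3 lower genes.

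Nuclear receptors and their coactivators had many lower members. Of 38 tested genes 16 were lower and 1 higher (42.1% and 2.63%) (median -0.23), and 8 and 0 without the block. PPARGC1B (NCBI Gene 133522, chr5:149730310-149857959), a coactivator of mitochondrial and oestrogen-related receptor genes, stood at 4.97, 4.49 and 7.47 CPM in DMSO and at 2.4, 2.91 and 1.28 CPM with prexasertib, a fall of 1.36 (SE 0.27, edgeR adjusted p = 0.000256). The pairs differed in size, with log2 changes of -1.01, -0.60 and -2.41. NR2F2, the orphan receptor COUP-TFII, fell by 0.72, from 60.3, 53.6 and 48.0 to 38.0, 32.4 and 28.3 CPM (edgeR adjusted p = 9.42e-10). NRIP1, a corepressor of nuclear receptors, fell by 0.69 from 65.6 ± 6.32 to 40.8 ± 6.47 CPM, and NR0B1, the orphan receptor DAX1, fell by 0.78 from 23.6 ± 7.09 to 13.6 ± 2.6 CPM (edgeR adjusted p = 8.82e-10 and 1.48e-06; 0.147 for NR0B1 without the block). RARA, the retinoic acid receptor alpha gene, was the 1 higher member, with a rise of 0.36 from 51.7 ± 3.24 to 67.0 ± 10.2 CPM (edgeR adjusted p = 0.000776, and 0.112 without the block).

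Of 46 Wnt pathway genes 11 were lower and 0 higher (1 higher at an unadjusted p under 0.05, and 0 by DESeq2 or limma-voom) (median -0.12) and 7 lower without the block. NKD1, a feedback inhibitor of the pathway, stood at 36.6, 40.0 and 30.4 CPM in DMSO and at 16.5, 18.2 and 13.7 CPM with prexasertib, a fall of 1.15 (edgeR adjusted p = 7.68e-13). DKK1, a secreted inhibitor, fell by 0.53 from 396, 398 and 373 to 284, 269 and 253 CPM (edgeR adjusted p = 6.99e-07). RNF43, a ligase that removes Wnt receptors from the cell surface, fell by 0.59 from 59.0 ± 13.2 to 39.0 ± 6.83 CPM (edgeR adjusted p = 2.07e-07, and 0.142 without the block). These 3 encode inhibitors of the pathway, whereas WNT6 (NCBI Gene 7475, chr2:218859805-218874233) encodes a ligand. WNT6 fell by 1.36, from 6.33, 9.15 and 6.46 to 2.79, 2.82 and 2.84 CPM (SE 0.20, edgeR adjusted p = 9.92e-07), and it overlaps WNT10A, which limits how its counts can be read.

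Falls outnumbered rises in other signalling lists as well. In the TGF-beta and BMP list 12 of 47 genes were lower and 5 higher (25.5% and 10.6%), or 4 and 0 without the block. TGFBR2, the type II receptor of TGF-beta, fell by 0.41 from 167, 173 and 144 to 115, 123 and 125 CPM, and the corepressor gene TGIF1 fell by 0.46 from 114 ± 9.36 to 82.8 ± 11 CPM (edgeR adjusted p = 2.34e-06 and 1.02e-07). The 5 higher genes were 0 without DMSO replicate 1, 3 without DMSO replicate 2, 2 without prexasertib replicate 1 and 3 without prexasertib replicate 3. In the YAP-TEAD list 12 of 40 were lower and 4 higher (30.0% and 10.0%). WWC1, which encodes the Hippo scaffold KIBRA, fell by 0.25 from 263 ± 16.3 CPM in DMSO, with 219, 218 and 224 CPM in the 3 prexasertib libraries, and the Hippo kinase gene STK3 rose by 0.42 from 16.5 ± 0.791 to 22.1 ± 1.59 CPM (edgeR adjusted p = 0.000257 and 0.00322). The 12 lower YAP-TEAD genes were 7 without DMSO replicate 1, 5 without prexasertib replicate 2 and 1 without the block. The 4 higher were 1 without prexasertib replicate 1, 2 without DMSO replicate 2 or 3 and 1 without the block.

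Notch genes went both ways, with 8 of 32 higher and 5 lower, or 1 and 1 without the block. DTX4, a ubiquitin ligase of the pathway, fell by 0.80 from 33.6, 33.7 and 30.4 to 18.8, 21.6 and 15.9 CPM, and its relative DTX2 rose by 0.35 from 70.7 ± 2.27 to 90.3 ± 7.03 CPM (edgeR adjusted p = 4.25e-08 and 0.000193). The 8 higher Notch genes were 4 without DMSO replicate 1 and 5 without prexasertib replicate 1 or 2, and the 5 lower were 3 without DMSO replicate 1 or 2 and 2 without prexasertib replicate 2. Among NF-kB and cytokine genes 6 of 37 were higher and 4 lower (16.2% and 10.8%). IL11, a cytokine of the IL-6 family, rose by 0.30 from 247 ± 6.73 to 304 ± 11.5 CPM (edgeR adjusted p = 2.25e-05). The 6 were 3 without DMSO replicate 2 or prexasertib replicate 1 or 2, and 1 without the block. The 4 lower were 1 without DMSO replicate 2 or 3 or prexasertib replicate 1 or 2, and 0 without the block. Of 44 interferon genes 2 were higher and 3 lower, 4.55% and 6.82%, with OAS1, a sensor of double-stranded RNA, at -0.46 (edgeR adjusted p = 4.97e-05).

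Developmental transcription factors had more lower than higher members. Of 76 homeobox, SOX, FOX and GATA genes 18 were lower and 7 higher (23.7% and 9.21%), or 8 and 3 without the block. FOXQ1, a forkhead factor, fell by 0.87 from 23.4, 25.8 and 26.5 to 14.1, 11.8 and 15.6 CPM, and GATA2, a factor best known from blood stem cells, rose by 0.92 from 11.8, 11.7 and 16.2 to 22.2, 23.2 and 29.9 CPM (edgeR adjusted p = 5.14e-08 and 1.13e-08). The 7 higher genes were 4 without prexasertib replicate 1. HLX, another homeobox factor of the list, fell by 1.39 from 5.65, 5.98 and 6.77 to 3.11, 2.0 and 1.83 CPM (edgeR adjusted p = 6.11e-06). Of 20 KLF and SP factors 7 were lower and 3 higher, or 3 and 1 without the block, with KLF6, a tumour suppressor factor, at -0.53 and SP6 at 1.08 (edgeR adjusted p = 2.3e-07 and 5.6e-07).

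Of 67 genes of the histone methylation machinery 12 were lower and 10 higher (17.9% and 14.9%), or 5 and 4 without the block. Chromobox genes of Polycomb complexes were among the falls: CBX2 went from 43.1, 47.5 and 48.6 to 26.4, 30.4 and 31.3 CPM (log2 -0.66) and CBX6 from 107 ± 2.07 to 81.4 ± 4.74 CPM (log2 -0.40; edgeR adjusted p = 1.15e-07 and 3.37e-06). KDM5A, which removes methyl groups from histone H3, fell by 0.37 (edgeR adjusted p = 2.11e-05). The largest falls of the comparison by the rule for named genes also included KCNE4, a potassium channel subunit (log2 -1.44, edgeR adjusted p = 4.26e-08, and 0.103 without the block), UBE2QL1, a ubiquitin-conjugating enzyme-like gene (log2 -1.31), SEMA4D, a semaphorin (log2 -1.29, edgeR adjusted p = 1.5e-11, and 0.0662 without the block), and the noncoding RNA MILIP (log2 -1.28). SEMA4D overlaps SECISBP2 and MILIP overlaps MAFG.

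Regulators of the G1 phase moved in both directions, with 5 of 29 higher and 8 lower (17.2% and 27.6%), or 2 and 3 without the block. CDK6, a kinase that phosphorylates RB in G1, fell by 0.48 from a mean of 85.1 to 60.8 CPM, and CDKN3, a phosphatase that acts on cyclin-dependent kinases, rose by 0.64 from 94.8 to 148 CPM (edgeR adjusted p = 0.000511 and 1.6e-11). The 5 higher genes were 3 without DMSO replicate 2 or prexasertib replicate 1 and 2 without DMSO replicate 3 or prexasertib replicate 3.

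NRF2 targets, which A549 cells are known to express strongly because their KEAP1 is mutated, had more lower than higher members. Of 38 members 10 were lower and 1, the export pump gene ABCC3 (log2 0.23, edgeR adjusted p = 0.041, and 0.688 without the block), was higher (26.3% and 2.63%) (median -0.068), or 2 and 0 without the block. HMOX1 (NCBI Gene 3162, chr22:35381096-35394207), the haem-degrading enzyme, stood at 944, 1010 and 1210 CPM in DMSO and at 616, 633 and 728 CPM with prexasertib, a fall of 0.67 (SE 0.050, edgeR adjusted p = 5.59e-15). TRIM16, a ubiquitin ligase, fell by 0.58 from 477 ± 27.1 to 319 ± 21.8 CPM (edgeR adjusted p = 5.71e-13). SH3BP4, which curbs receptor uptake and amino acid signalling and is in none of the lists, fell by 0.73 from 188, 188 and 232 to 109, 119 and 140 CPM (edgeR adjusted p = 1.21e-14).

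Among metabolic and chaperone lists, the sterol and heat shock lists had more higher than lower members. Of 37 sterol genes 8 were higher and 1 lower (21.6% and 2.7%). MYLIP, a ubiquitin ligase of lipoprotein uptake, rose by 0.52 from 12.3 ± 1.84 to 17.6 ± 1.72 CPM (edgeR adjusted p = 0.00113). The 8 were 4 without DMSO replicate 2, 5 without prexasertib replicate 3 and 3 without the block. Of 28 heat shock chaperone genes 5 were higher and 1 lower (17.9% and 3.57%). BAG3, a co-chaperone of HSP70, rose by 0.39 from 177 ± 17.6 to 233 ± 33.4 CPM (edgeR adjusted p = 3.37e-06). Glycolysis and hypoxia (4 of 41 higher, 5 lower), autophagy and lysosome (4 and 5 of 56), endoplasmic reticulum chaperones (4 and 3 of 28) and the circadian clock (2 and 3 of 20) stayed close to the background shares. Their lower counts ranged from 3 to 5, 1 to 5, 0 to 2 and 0 to 2 on leaving out single libraries.

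Across the transcriptome, the share of lower genes was greater among long genes. Genomic length here is the span of the gene in the GRCh38.p14 annotation, known for 14585 tested genes. Among genes under 5 kb 6.25% were lower and 8.31% higher, and among those over 100 kb 16.1% were lower and 4.0% higher. The share of lower genes was 5.98%, 8.36% and 14.3% in the bins from 5 to 20, 20 to 50 and 50 to 100 kb. The median length was 56.4 kb for lower genes, 22.0 kb for higher genes and 27.7 kb for genes not called. Leaving out the G2/M, E2F and p53 lists and all genes that do not encode protein gave 7.47% lower under 5 kb and 16.5% over 100 kb. Within a mean log2 CPM of 5 to 7 the shares were 10.1% and 21.8%, so the difference was also present among genes of similar level. Without the block 5.29% of the genes over 100 kb were lower and 1.01% higher. The lower share was 10.0% without prexasertib replicate 1, and the higher share 2.65% without prexasertib replicate 1, 2.0% without prexasertib replicate 2 and 2.38% without DMSO replicate 2.

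The same pattern was seen in the 6 libraries that carried 5-Ph-IAA, which share no library with the comparison above. There, both drugs against 5-Ph-IAA gave 1.88% lower genes under 5 kb and 17.1% over 100 kb, and 15.4% and 1.24% higher. The Spearman correlation of length with log2 fold change was -0.122 for prexasertib against DMSO and -0.328 for both drugs against 5-Ph-IAA, over genes, which are not independent replicates. The median log2 fold change of genes over 100 kb was -0.053. The part of intron number or of cell-cycle phase in this difference was not tested.

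**Figure D4:**
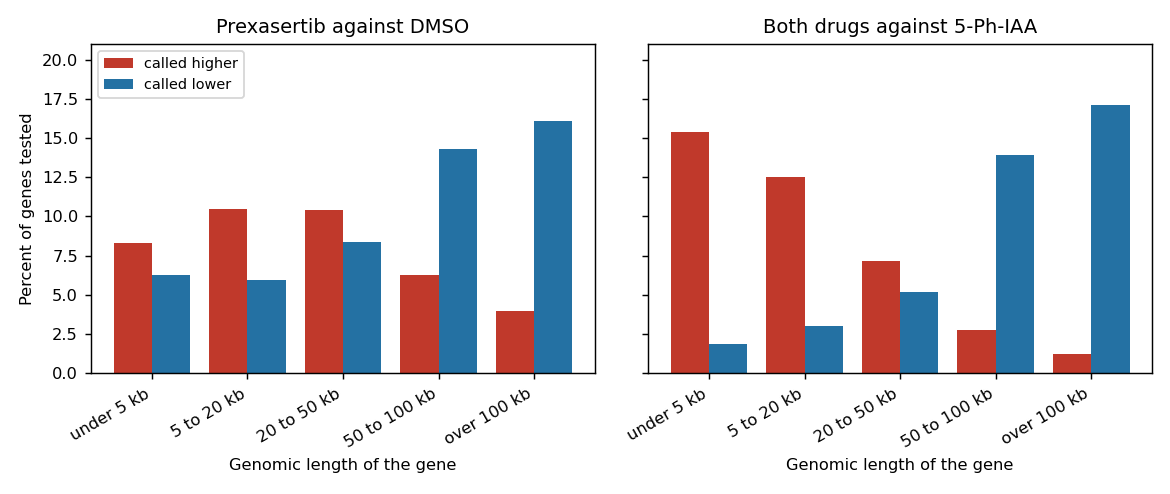
Percent of tested genes called higher (red) or lower (blue) in 5 bins of genomic length, for prexasertib against DMSO (left) and for both drugs against 5-Ph-IAA (right). In both panels the blue bars rise to 16.1% and 17.1% over 100 kb, and the red bars fall to 4.0% and 1.24%.

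The response was compared with that of cells from which TRRAP had been depleted, using both drugs against 5-Ph-IAA. Of the 1227 genes higher with prexasertib alone, 1126 (91.8%) also had a positive change there and 554 were called higher. The share of all tested genes called higher there was 7.8%. Of the 1432 lower genes, 90.7% had a negative change and 694 were called lower, while 9 were called higher. The share of all tested genes called lower there was 7.7%. Over all genes 52.6% had a positive change. The median change of the higher genes was 0.35 with TRRAP and 0.21 after its degradation, and of the lower genes -0.38 and -0.26. The first comparison chose the genes, so the second median of each pair is the one it did not fix. Without the libraries numbered 3 the shares were 84.5% and 86.6%.

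The difference between the 2 responses was tested for each gene as an interaction, and 96 genes were called (0.655%), 55 with a larger log2 change after degradation and 41 with a smaller one. EGR1 rose by 3.79 with TRRAP and by 2.12 after its degradation, where it stood at 7.73, 7.14 and 5.39 CPM with 5-Ph-IAA and at 32.1, 31.3 and 22.9 CPM with both drugs (interaction -1.67, SE 0.27, edgeR adjusted p = 0.00337). UBE2C rose by 0.24 with TRRAP and by 0.93 after its degradation (interaction 0.69, edgeR adjusted p = 8.59e-08). CDK1 fell by 0.26 with TRRAP and rose by 0.39 after degradation (interaction 0.65, edgeR adjusted p = 2.36e-05). WNT6 fell by 1.36 with TRRAP and stood 0.19 higher after degradation, not a call there (interaction 1.55, edgeR adjusted p = 0.000717). DBF4B and ODF2 rose with TRRAP (0.63 and 0.67) and had changes of 0.064 and 0.24 after degradation (interactions -0.57 and -0.43, edgeR adjusted p = 0.00172 and 0.00605). Without the block 0 interactions were called (519 at an unadjusted p under 0.05, whereas DESeq2 and limma-voom with the block called 86 and 97), and the count was 52, 50 and 160 without DMSO replicate 1, 2 or 3 and 28 and 31 without prexasertib replicate 1 or 2.

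**Figure D5:**
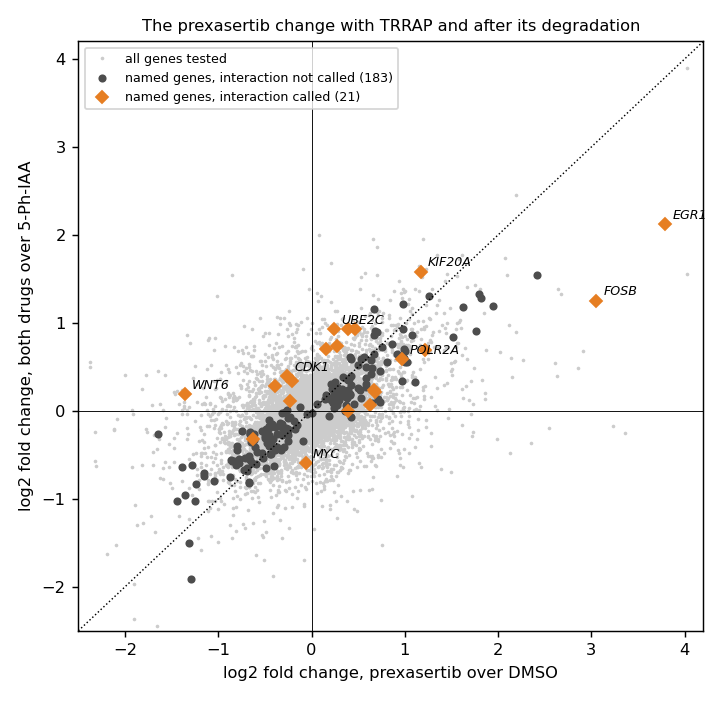
Log2 fold change with prexasertib over DMSO (horizontal) against that of both drugs over 5-Ph-IAA (vertical), for all genes tested in light grey, the named genes in dark grey and the 21 named genes with a called interaction as orange diamonds; the dotted line marks equal change and 3 genes lie outside the axes. EGR1 and FOSB lie below the line, and UBE2C, CDK1 and WNT6 above it.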

How the data were processed

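RNA of 12 A549 libraries, 3 in each of 4 groups, was measured as raw counts per gene. The deposited counts were made by the authors with featureCounts 2.0.8 on hg38, per the submitters' processing notes, and the library kit is directional and poly(A)-selected, per the labels' protocols. Not given in the sources used here are the aligner of the RNA reads, the gene models counted and whether counting used strand, so overlapping genes are uncertain. Gene IDs are NCBI Gene IDs. Of 28395 IDs 27745 matched the RefSeq table (GRCh38.p14), which gave names, lengths and promoters, and 650 did not.

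edgeR 4.0.16 (R 4.3.3) was fitted to all 12 libraries, with TMM scaling, filterByExpr (minimum count 10, minimum total 15), group and replicate number as terms and robust quasi-likelihood F tests. It tested 14658 genes, which held 99.92% of the counts, with 6 residual degrees of freedom and a biological coefficient of variation of 5.72%. Calls have a Benjamini-Hochberg adjusted p under 0.05 over all tested genes. Levels are CPM on TMM-scaled libraries unless stated. The script was tested on simulated data. Alternatives included DESeq2 1.42.0, limma-voom (limma 3.58.1), other scalings and filters, no block, and each library left out. An exact test of 3 against 3 cannot go below p = 0.1, so single genes rest on the model across genes. The labels do not say that the replicates are separate cultures, and p-values then measure only the spread between these libraries. Each library held 11584320 to 13754538 counts in the 2 groups compared, and this number limits the precision of weak genes.

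The replicate number, taken from the sample titles, was fixed as the block for this comparison. The correlations that follow describe the pairing and did not decide it. Same-numbered DMSO and prexasertib libraries had deviations from their group means that correlated at 0.252, 0.353 and 0.551, each over 0.1, the bound used to check the pairing. Libraries numbered 1 and 2 also passed it across numbers, at 0.196 and 0.208. The check therefore sets replicate 3 apart but cannot tell replicate 1 from replicate 2.

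The members, the gene lists and the tests were chosen with earlier results of these data known. Genes were named by rule: among called genes whose groups did not overlap and whose mean log2 CPM was 1.0 or more, the 8 largest rises and 8 largest falls; the 6 smallest adjusted p in each direction; in each list with 3 or more calls, the 3 leading members in the direction with more calls and 1 in the other; 12 fixed genes, most of them of the checkpoint; and the 5 smallest interaction p among called genes. A few genes that the rule names are not reported here. Other genes are marked as chosen after their values were seen. No per-sample column of the count table was left unused (0 columns).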

Additional observations from a re-analysis of the deposited data

Results flagged for a closer look

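For 21 of the named genes the response to prexasertib differed between cells with TRRAP and cells after its degradation, by the edgeR interaction term (adjusted p over all tested genes). Values are the log2 response after degradation minus that with TRRAP, and are given for 20 of the genes.

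Some mitotic and p53 genes had a larger log2 rise after degradation. UBE2C had 0.695 (adjusted p = 8.59e-08), KIF20A, a mitotic kinesin, 0.405, and CENPA, the centromeric histone H3, 0.536. The p53 targets PHLDA3, AEN and BBC3 had 0.553, 0.465 and 0.464. Mean levels of KIF20A, CENPA, PHLDA3, AEN and BBC3 in DMSO were 215, 81.4, 241, 232 and 80.2 CPM. With 5-Ph-IAA they were lower, at 67.0, 31.5, 164, 167 and 58.3 CPM. With prexasertib alone they were 486, 107, 268, 280 and 111 CPM, and with both drugs 200, 59.9, 267, 278 and 111 CPM. The larger log2 rises of these genes thus started from lower levels and did not end at higher ones. CDK1 (0.651), IER5L (0.554), SDF2L1 (0.665), H1-10 (0.337) and WNT6 (1.55) fell with TRRAP and had positive changes after degradation.

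These genes were picked for their interaction and do not stand for their lists: the G2/M median was 0.52 with TRRAP and 0.495 after degradation, and that of the early gene list 0.33 and 0.314. Among early genes EGR1 had -1.67, FOSB -1.81, NR4A1 -0.521 and MYC -0.534, and MYC was called lower only in the cells without TRRAP. In DMSO the means of EGR1, FOSB, NR4A1 and MYC were 2.78, 2.55, 45.8 and 87.5 CPM. With 5-Ph-IAA they were higher, at 6.75, 4.17, 61.6 and 112 CPM. With prexasertib alone they were 38.6, 22.4, 107 and 83.5 CPM, and with both drugs 28.8, 10.1, 99.7 and 74.1 CPM. The responses of these early genes after degradation thus started from higher means. POLR2A (-0.385), DBF4B (-0.567), ODF2 (-0.433), GEN1 (-0.393) and ZKSCAN5 (-0.467) rose with TRRAP and had smaller changes after degradation, with GEN1 at -0.0055 there.

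Of the 21 interactions 11 kept their call on leaving out each of the 6 DMSO and prexasertib libraries in turn. Among those reported here, the calls of BBC3, FOSB, GEN1, H1-10, MYC, NR4A1, POLR2A, SDF2L1 and ZKSCAN5 were lost in 2 to 4 of those fits, with adjusted p up to 0.0788, 0.119, 0.209, 0.205, 0.0942, 0.0942, 0.124, 0.185 and 0.139. Without the replicate block 0 of the 21 were called. Groups of 3 libraries are too small for the test of single outlying samples.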

How the results depend on the processing

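The directions of all called named genes held in every alternative, with 0 reversals. Of 196 called named genes 85 kept the call throughout, 80 lost it without the replicate block and 37 on leaving out at least 1 library. Without the replicate block 346 genes were higher and 347 lower, and with the 6 libraries alone and no replicate block 205 and 152. The other settings with all 6 libraries gave 935 to 1531 higher and 1059 to 1793 lower genes, within 1.5 times the 1227 and 1432 reported. Leaving out single libraries gave 833 to 1109 higher and 869 to 1175 lower genes, the 869 without prexasertib replicate 1. The interaction count of 96 was 0 without the block, 177 with no filter on low counts, 63 with the non-robust test, 251 without the libraries numbered 3, and 28 to 160 on leaving out single libraries.

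Genes that were not called changed sign around 0. ATR stood at -0.0277 with library size only, -0.00296 with no filter and -0.0604 without the libraries numbered 3, MYC at 0.0858 and TRRAP at 0.0513 without those libraries. On leaving out single libraries ATM ranged from -0.0424 to 0.213, ATR from -0.0668 to 0.141, MYC from -0.171 to 0.0622 and TRRAP from -0.267 to 0.000511. The causes were not tested. All groups hold 3 libraries, which limits what can be called in weak genes.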

Other observations

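Genes without a protein product had few calls. Of 873 tested lncRNA genes 4.58% were higher and 3.32% lower, against 8.72% and 10.4% of the protein-coding genes, and calls were also fewer among weak genes in general (2.96% and 2.28% under a mean log2 CPM of 1). Of 336 antisense genes 9 were higher and 7 lower (2.68% and 2.08%), and of 179 genes named as LINC RNAs 9 were higher and 8 lower (5.03% and 4.47%). The 9 higher antisense genes were 4 without DMSO replicate 1, 4 with the strict filter and 4 without the block. The 9 higher LINC RNAs were 2 without DMSO replicate 1 or prexasertib replicate 1, 3 without prexasertib replicate 2, 5 without DMSO replicate 2, 3 by DESeq2 and 0 without the block, and the 8 lower were 5 without DMSO replicate 1 or 3 or prexasertib replicate 1 or 2. Of 445 zinc finger genes 27 were higher and 47 lower (6.07% and 10.6%). The 27 were 14 without prexasertib replicate 1 and 12 without prexasertib replicate 2.

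The next genes were chosen after their values were seen. C2orf78 stood at 0.301, 0.176 and 0.311 CPM in DMSO and at 4.95, 5.54 and 3.11 CPM with prexasertib. GFRA3, a receptor of the GDNF family, stood at 0.226, 0 and 0.234 CPM in DMSO and at 3.19, 2.73 and 2.11 CPM with prexasertib. The groups of both genes did not overlap, and their DMSO levels rest on few counts. Both genes passed the filter on low counts only through groups other than DMSO, so no fold and no p-value are given. Among abundant genes, CKAP5, which lengthens microtubules, stood at 365, 366 and 371 CPM in DMSO and at 606, 635 and 579 CPM with prexasertib (log2 0.72, edgeR adjusted p = 1.17e-15). XPO1, the nuclear export receptor, stood at 602, 593 and 457 CPM in DMSO and at 416, 420.0 and 348 CPM with prexasertib (log2 -0.47, edgeR adjusted p = 2.76e-10).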
